A study of Rattus norvegicus with 180 samples.

Results

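miR-192, miR-194 and miR-215 were read by 4 IDs of a custom rat miRNA microarray, rno-miR-192, rno-miR-194, rno-miR-215 and rno-miR-215_v15.0, out of 717 miRNA IDs in all. The members were chosen by name, and the ID with the suffix v15.0, which the design keeps from an older miRBase release, was taken with them. Each of the 4 IDs was measured by 2 probe sequences with 10 spots each. The arrays came from 6 male Sprague-Dawley rats of 10 weeks of age. From 3 rats perfused with saline (rats 4, 5 and 6), 55 organs were taken, each on 1 array per rat. From 3 rats that were not perfused (rats 1, 2 and 3), liver, kidney, lung, heart atrium and heart interventricular septum were taken, which gave 15 arrays. The rats were of a common outbred stock with no altered gene named and no test compound given, and each was anesthetized with ether before sampling. Each group was 3 rats with 1 array each. The liver samples were the left lateral lobe, the kidney samples the whole organ, and the intestinal samples the mucosa scraped off each segment, as the study's methods give them. No scraping is named for the other organs, stomach included. A difference between intestine and another organ thus cannot be told apart from the way of sampling. Levels are array signals scaled between arrays, without a unit, and a miRNA was called detected on an array when more than 50% of the spots kept for it were marked well above background.

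miRNAs pair with messenger RNAs mainly through the seed, bases 2 to 8 from the 5′ end, and lower their translation and stability. miR-192 and miR-215 carry the same seed and are counted as 1 family, while miR-194 has another seed and is made from the same primary transcripts. The 3 miRNAs are known from intestinal epithelium, liver and kidney, and as targets of p53.

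The mature sequences are shown because a shared seed and a shared locus are what relate these miRNAs to each other. They come from RefSeq (build GRCr8), in which all 5 names looked for (the 3 miRNAs and the other strands of miR-192 and miR-194) were matched, and capitals mark the seed.
rno-miR-192-5p: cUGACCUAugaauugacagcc
rno-miR-215: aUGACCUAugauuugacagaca
rno-miR-194-5p: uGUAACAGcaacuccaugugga
Over the 21 positions that both have, counted from 1 at the 5′ end, miR-215 differed from miR-192 by C1A, A12U and C20A, all outside the seed, and 18 positions were the same. miR-215 had 1 base more. Of 724 mature entries in the RefSeq table, 2 had the seed of miR-192, which were miR-192 and miR-215 themselves, and 2 had that of miR-194, which were its 2 gene copies. The probe bases were not analysed here, so which of these positions the probes cover is not known.

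In the same build, mature miR-192 lay at chr1:212994232-212994252 and the first copy of miR-194 (Mir194-2) at chr1:212994038-212994059, both on the plus strand between the genes Atg2a and Ehd1 and within neither. The hairpins of Mir194-2 and Mir192 were 100 bases apart. Mature miR-215 lay at chr13:99383003-99383024 and the other copy of miR-194 (Mir194-1) at chr13:99382730-99382751, both on the plus strand within the span of Iars2, which encodes mitochondrial isoleucyl-tRNA synthetase. Those hairpins were 191 bases apart. The copies give the same mature miR-194, and the array cannot tell which copy a signal came from.

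The number of detected miRNAs ranged from 86 to 244 over the arrays, with a median of 161.5, no miRNA spot was saturated (0 over 180 arrays), and the number of arrays limits the precision. The tissue labels were compared with marker miRNAs. miR-122, the miRNA of hepatocytes, had a level of 98773 to 112972 in liver and was not detected in stomach, any intestinal segment or esophagus. In kidney it was detected in 1 rat, at 18.4. The 6 IDs of the epithelial miR-200 family (miR-200a, miR-200b, miR-200c in 2 versions, miR-141 and miR-429) were detected in all 3 rats in glandular stomach and in every intestinal segment, and 1 of them was in liver. Some gut arrays stood apart. The cecum of rat 4 had an epithelial sum of 8688, against 18663 and 21216 in rats 5 and 6. Its sum over 4 leukocyte miRNAs (miR-142-3p, miR-142-5p, miR-150 and miR-223) was 5487, against 2406 and 2635. The leukocyte sum in colon was 4599 in rat 4, against 1800 and 1666. In ileum the sum of miR-143 and miR-145 of smooth muscle was 1653 in rat 6, against 6620 and 5587. As scaled here, differences of the 3 miRNAs that use cecum are given with and without the cecum of rat 4. Those of marker lists are given with it only. The colon of rat 4 and the ileum of rat 6 were not left out on their own.

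Over the 55 organs of perfused rats, miR-192 and miR-194 stood far above the other organs in the same 9 organs, the 6 intestinal segments, glandular stomach, liver and kidney. miR-215 did so in the 6 intestinal segments alone. As scaled here, the order of the miR-192 means was duodenum, jejunum, ileum, rectum, colon, cecum, liver, glandular stomach and kidney, and that of miR-194 was the same. These 9 means ran from 25731 to 2041 for miR-192 and from 25104 to 611 for miR-194. For both miRNAs the ranges of the 3 rats overlapped between duodenum and jejunum and between colon and cecum. Within rats, jejunum minus duodenum for miR-194 was −0.66, −0.14 and −0.15 on the log2 scale, so overlap alone does not show that neighbours were alike. Overlap was also seen between jejunum and ileum, cecum and liver, and glandular stomach and kidney for miR-192, and between liver and glandular stomach for miR-194.

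**Figure D1:**
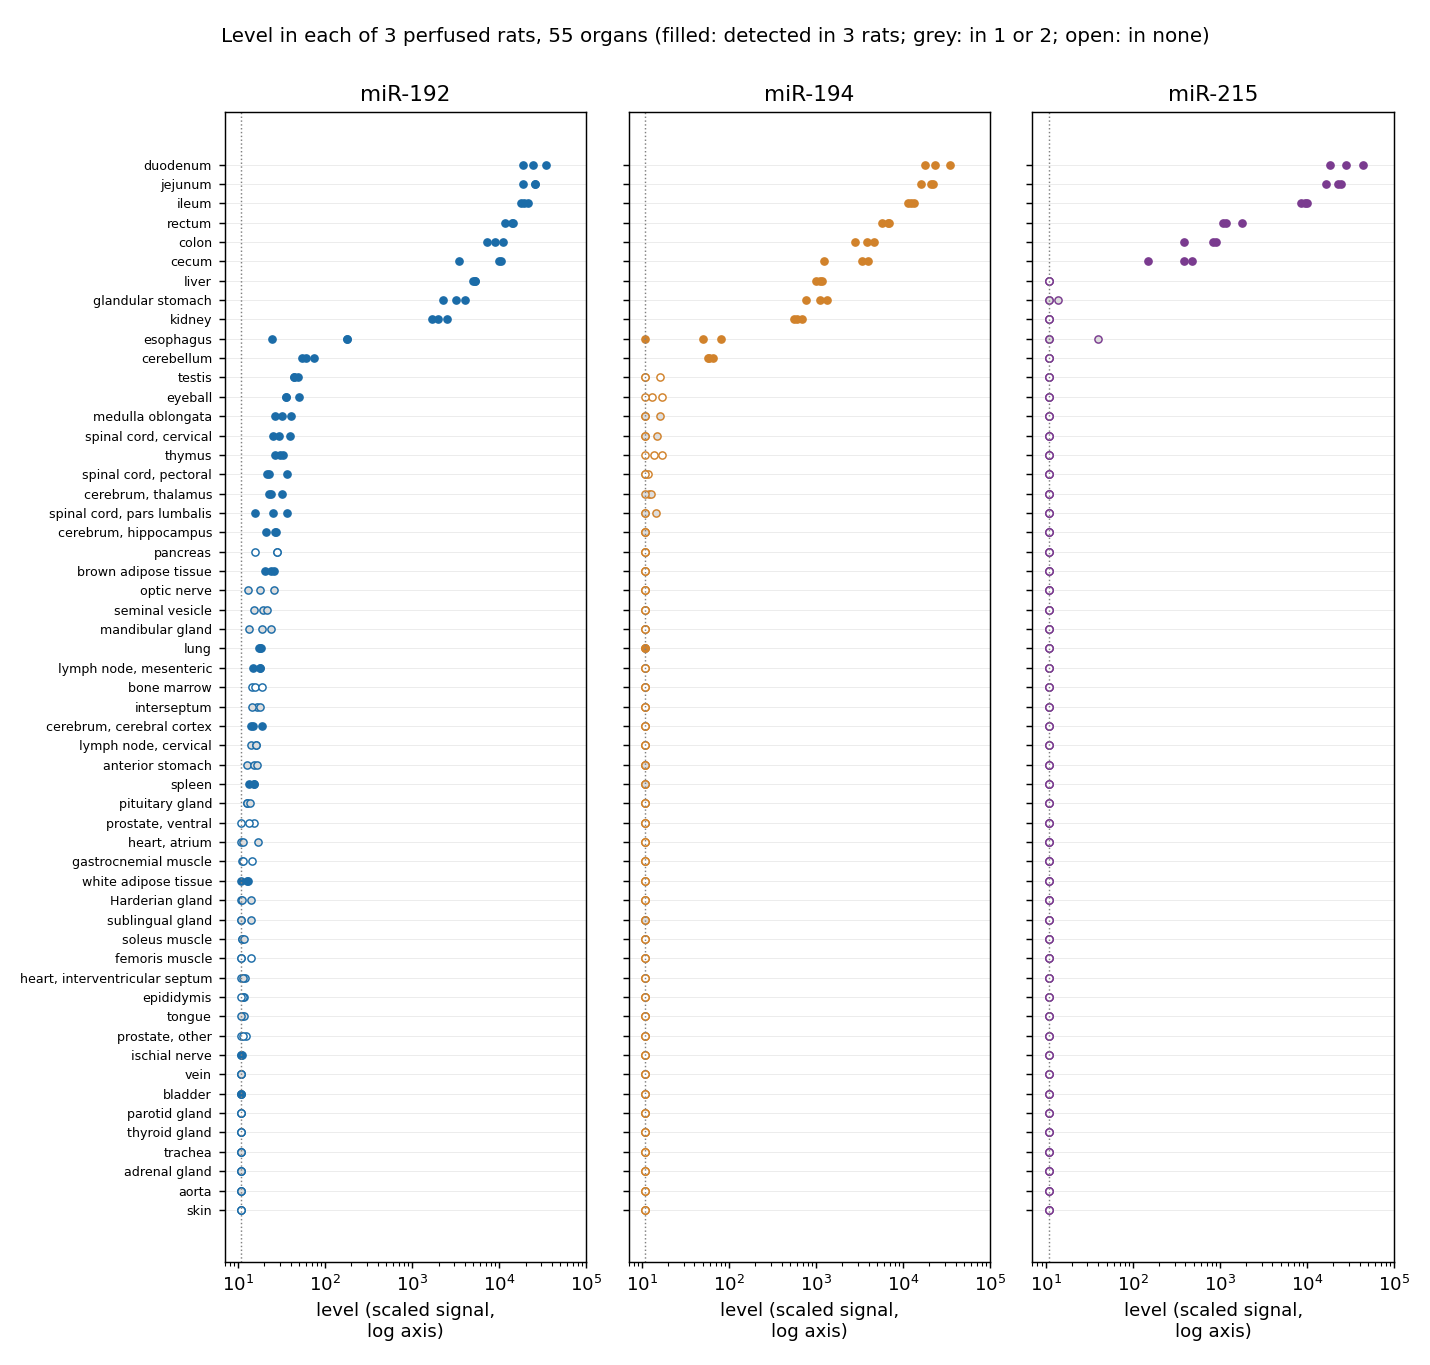
Level of miR-192, miR-194 and miR-215 (scaled signal, log axis) in each of 3 perfused rats for 55 organs, in the order of the miR-192 means. Symbols are filled where the miRNA was detected in 3 rats of the organ, grey where it was in 1 or 2 and open where it was in none, and the dotted line is the floor of 10.8 to which lower values were set. The 9 organs at the top stand apart for miR-192 and miR-194, and the 6 intestinal segments for miR-215.

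Outside these 9 organs the mean levels of miR-192 and miR-194 were lower by an order of magnitude or more. The lowest signal of a detected miRNA ran from 2.69 to 273 over the arrays, so detection did not have the same limit on each. miR-192 was detected in all 3 rats in 19 of the other 46 organs and in 1 or 2 rats in 17, and the highest mean of them was 127 ± 88.3 (SD, n = 3) in esophagus. In esophagus the levels were 179, 24.8 and 176 in rats 4, 5 and 6, so rat 5 was low. In that array the epithelial sum was also lower, 1117 against 2609 and 5088, and its part in the low level was not tested. miR-194 was detected in all 3 rats in 3 of the other 46 organs, with means of 60.5 ± 4.69 in cerebellum, 46.7 ± 35.9 in esophagus and 7.73 ± 0.52 in lung, which is under the floor. The cerebellum levels of miR-194 were 56.7, 59.0 and 65.8, and those of miR-192 there were 54.8, 74.1 and 59.7. These 2 miRNAs had low but detected signals in a brain region in which 0 of the 6 epithelial IDs was detected in any rat. miR-192 was also detected in all 3 rats in testis, with a mean of 45.3 ± 3.19, and in eyeball, with 40.1 ± 8.09.

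miR-215 was detected in all 3 rats in none of the 46 other organs, and in 1 rat in 1 of them, esophagus, where its signals were 39.8, 3.01 and 6.19 in rats 4, 5 and 6. miR-215_v15.0 was detected on 3 of the 138 arrays of those organs, 2 in esophagus and 1 in anterior stomach. On the 18 intestinal arrays the signal of miR-215_v15.0 was 1.63 to 2.59 times that of miR-215 (median 1.99), and the log2 levels of the IDs correlated with a Pearson r of 0.999 over these arrays, which share rats and slides. The IDs are reads of 1 miRNA and not independent measurements.

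Along the intestine all 3 miRNAs were highest in the small intestine as scaled here, and miR-215 fell most toward the large intestine. For miR-192 this rested on the scaling, since rectum was highest with the authors' table and with the percentile taken over all miRNAs instead of those detected on all arrays. The levels of miR-192 in rats 4, 5 and 6 were 34114, 24388 and 18690 in duodenum, 25822, 25959 and 18834 in jejunum, and 17735, 21108 and 19253 in ileum. They were 3406, 9878 and 10467 in cecum, 8794, 11074 and 7250 in colon, and 13830, 11497 and 14300 in rectum. As scaled here, every small intestinal array was above every large intestinal array for miR-192, with the lowest small intestinal level at 17735 in ileum and the highest large intestinal level at 14300 in rectum. The arrays overlapped with the authors' table, with the percentile over all miRNAs and after quantile normalization.

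The levels of miR-194 were 34609, 23113 and 17589 in duodenum, 21865, 20936 and 15808 in jejunum, and 11243, 12204 and 13365 in ileum. In cecum they were 1226, 3337 and 3900, in colon 3865, 4619 and 2761, and in rectum 6838, 5705 and 6758. As scaled here, the groups did not overlap between ileum and any large intestinal segment, but with the authors' table and the percentile over all miRNAs the arrays of ileum and rectum overlapped and rectum had the higher mean. Rat 4 was highest of the 3 rats in duodenum and lowest in cecum for both miRNAs.

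The levels of miR-215 were 44298, 27844 and 18079 in duodenum, 24175, 22378 and 16422 in jejunum, and 9415, 9870 and 8553 in ileum. In cecum they were 149, 479 and 389, in colon 896, 834 and 389, and in rectum 1763, 1173 and 1079. The lowest ileum level was thus several times the highest rectum level, and the lowest jejunum level lay above the highest ileum level. The same steps were seen with miR-215_v15.0, whose means were 50307 ± 21066 in duodenum, 37195 ± 5281 in jejunum, 17637 ± 1023 in ileum, 738 ± 373 in cecum, 1447 ± 552 in colon and 3150 ± 786 in rectum (SD, n = 3 each).

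**Figure D2:**
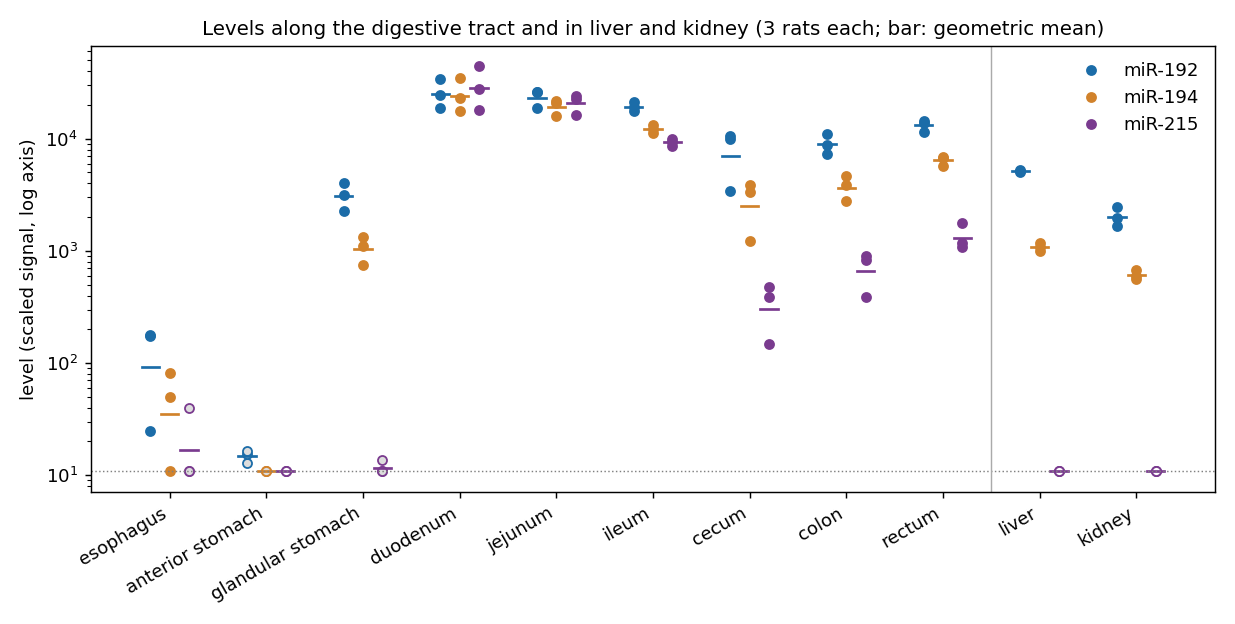
Levels of the 3 miRNAs (scaled signal, log axis) in each perfused rat from esophagus to rectum and in liver and kidney, with a bar at the geometric mean of 3 rats. Filled, grey and open symbols mark detection in 3, in 1 or 2 and in no rat of the organ, and the dotted line is the floor of 10.8. miR-215 spans from levels near 30074 in duodenum to 339 in cecum and is at the floor in liver and kidney.

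The question of how far small and large intestine differ was put to limma, fitted over all 55 organs with p adjusted over the 345 miRNAs tested. The fit takes 1 spread per miRNA from all organs, and values set to the floor do not vary. miR-215 was detected on 1 of the 138 arrays of the 46 other organs. Its SE and adjusted p, here and below, can thus be smaller than the spread among intestinal arrays would give. The values per rat are to be read beside them. Large minus small intestine was −1.25 for miR-192 (log2, SE 0.16, adjusted p = 4.10e-11), −2.20 for miR-194 (SE 0.13, adjusted p = 1.66e-30), −4.78 for miR-215 (SE 0.11, adjusted p = 5.68e-69) and −4.48 for miR-215_v15.0 (SE 0.15, adjusted p = 2.81e-54). All 4 IDs fell, in 3 of 3 rats each, where 34.5% of all miRNAs tested were called lower and 5.8% higher. The difference of miR-192 depended on the scaling. It was −0.70 with the authors' normalized table, −0.66 with the percentile taken over all miRNAs, and 0.073 with an adjusted p of 1 after quantile normalization, so its direction was not kept there. miR-194 (−0.86) and miR-215 (−3.71) stayed lower after quantile normalization. Without the cecum of rat 4 the differences were −1.08 for miR-192, −2.02 for miR-194, −4.61 for miR-215 and −4.30 for miR-215_v15.0. In bulk tissue, fewer epithelial cells and less miRNA per cell cannot be told apart, and of the 6 epithelial IDs 2 were called lower and none higher (median −0.40, against −0.01 over all miRNAs tested). Of the 4 leukocyte IDs 2 were called lower (median −0.56). So were 1 of the 2 smooth muscle IDs miR-143 and miR-145 (median −0.64) and 1 of the 2 endocrine IDs miR-375 and miR-7a (median −0.47). The 2 IDs of squamous epithelium parted, with 1 called higher (2.43) and 1 lower (−1.36). The part of these cells in the fall of the 3 miRNAs was not tested.

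Between neighbouring segments, jejunum and duodenum showed no called difference for any of the 4 IDs as scaled here, where 8.7% of all miRNAs were called, a count of 30 that ran from 8 to 262 over the alternatives. Jejunum minus duodenum was −0.10 for miR-192 (SE 0.28), −0.32 for miR-194 (SE 0.23) and −0.44 for miR-215 (SE 0.19, adjusted p = 0.182). It was below 0 in 3 of 3 rats for miR-194 and miR-215 and in 1 of 3 for miR-192. With the authors' table miR-215 passed the test (−0.61, adjusted p = 0.0172), and with 1 rat left out its difference ran from −0.59 to −0.23, the latter without rat 4. From jejunum to ileum miR-215 fell by 1.16 on the log2 scale (SE 0.19, adjusted p = 1.49e-06) and miR-215_v15.0 fell by 1.07 (SE 0.25, adjusted p = 0.000982), where 3.19% of all miRNAs were called lower. With normexp background correction these changes were −1.13 and −1.04 but did not pass the test (adjusted p = 0.626 and 0.649). That of miR-215 was −0.63 after quantile normalization (adjusted p = 0.0156), and that of miR-215_v15.0 was also lost with a lower floor (adjusted p = 0.101) and without rat 5 (adjusted p = 0.0542). The difference was −0.66 for miR-194 (SE 0.23, adjusted p = 0.053) and −0.27 for miR-192 (SE 0.28, adjusted p = 0.987). After quantile normalization these were 0.0 and 0.65, again without a call, so the direction of miR-192 was not kept. miR-194 passed the test under 5 alternatives, which are listed with the processing. The epithelial IDs had a median difference of −0.05 at this step with 0 of 6 called, while 4 of 4 leukocyte IDs were called lower (median −1.20). Their part in the fall was not tested.

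miR-194 and miR-215 had their largest step between neighbouring intestinal segments from ileum to cecum, as did miR-192 as scaled here. With the authors' table and the percentile over all miRNAs, the step of miR-192 from colon to rectum was larger (1.48 and 1.495) than that from ileum to cecum (−1.20 and −1.23). Cecum minus ileum was −1.45 for miR-192 (SE 0.28, adjusted p = 1.19e-05), −2.28 for miR-194 (SE 0.23, adjusted p = 1.59e-15) and −4.94 for miR-215 (SE 0.19, adjusted p = 3.23e-46), with 16.8% of all miRNAs called lower and 9.28% higher. In rats 4, 5 and 6 the difference was −2.38, −1.10 and −0.88 for miR-192 and −5.99, −4.36 and −4.46 for miR-215, so rat 4 had the largest drop. Of the epithelial IDs 3 of 6 were called lower (median −0.96), and 4 of 4 leukocyte IDs were called higher (median 1.29), while 1 of 2 endocrine IDs was called lower (median −0.91). Of the 2 squamous IDs 1 was called higher (1.57) and 1 lower (−1.36). Their part in the drop was not tested. Without the cecum of rat 4 the difference of miR-192 was −0.93 (adjusted p = 0.0144), which is smaller by over 1.5 times. That of miR-194 was −1.76 and that of miR-215 −4.42 without it. After quantile normalization the differences of miR-192 and miR-194 were −0.80 and −1.37. With only the organs compared in the fit, the call of miR-192 was lost (−1.45, SE 0.44, adjusted p = 0.0611).

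From cecum to colon, miR-215 was higher by 1.13 (SE 0.19, adjusted p = 6.10e-06), while the difference was 0.54 for miR-194 (SE 0.23, adjusted p = 0.153) and 0.33 for miR-192 (SE 0.28, adjusted p = 0.731), with 4.06% of all miRNAs called higher. This difference rested largely on rat 4, in which miR-215 rose by 2.59 against 0.80 in rat 5 and 0.00 in rat 6. Without the cecum of rat 4 it was 0.62 (adjusted p = 0.0340), and without rat 4 altogether 0.40 (adjusted p = 0.072). The call was also lost with normexp (0.92, adjusted p = 0.903) and with only the organs compared in the fit (1.13, adjusted p = 0.453). The colon and cecum arrays of rat 4 lay on different slides, while those of rats 5 and 6 shared a slide. The differences of miR-192 and miR-194 also rested on the cecum of rat 4, and without it they were −0.19 and 0.02. That of miR-215_v15.0 was 1.06, and without that array it was 0.52 and its call was lost (adjusted p = 0.377). Both endocrine IDs (median 1.33) and 1 of 6 epithelial IDs (median 0.41) were called higher in colon than in cecum, and 1 of 4 leukocyte IDs was called lower (median −0.35). Of the 2 squamous IDs 1 was called higher (1.06). Their part in the difference was not tested. From colon to rectum, miR-215 rose by 0.98 (SE 0.19, adjusted p = 1.25e-05) and miR-194 by 0.81 (SE 0.23, adjusted p = 0.0032), in 3 of 3 rats each, where 4.35% of all miRNAs were called higher and 22.3% lower. Both calls were lost with normexp (adjusted p = 0.129 each), and that of miR-194 also without rat 6 (0.56, adjusted p = 0.309). With the authors' table the differences were larger, 1.89 and 1.72. miR-192 differed by 0.56 (SE 0.28, adjusted p = 0.15) in the same direction. With the authors' table that difference was 1.48, and rectum was then the organ with the highest miR-192 level. All 4 leukocyte IDs were called lower in rectum than in colon (median −2.76) and both smooth muscle IDs were too (median −2.80), as was 1 of 2 endocrine IDs (median −1.16). Their part in the rise was not tested.

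**Figure D3:**
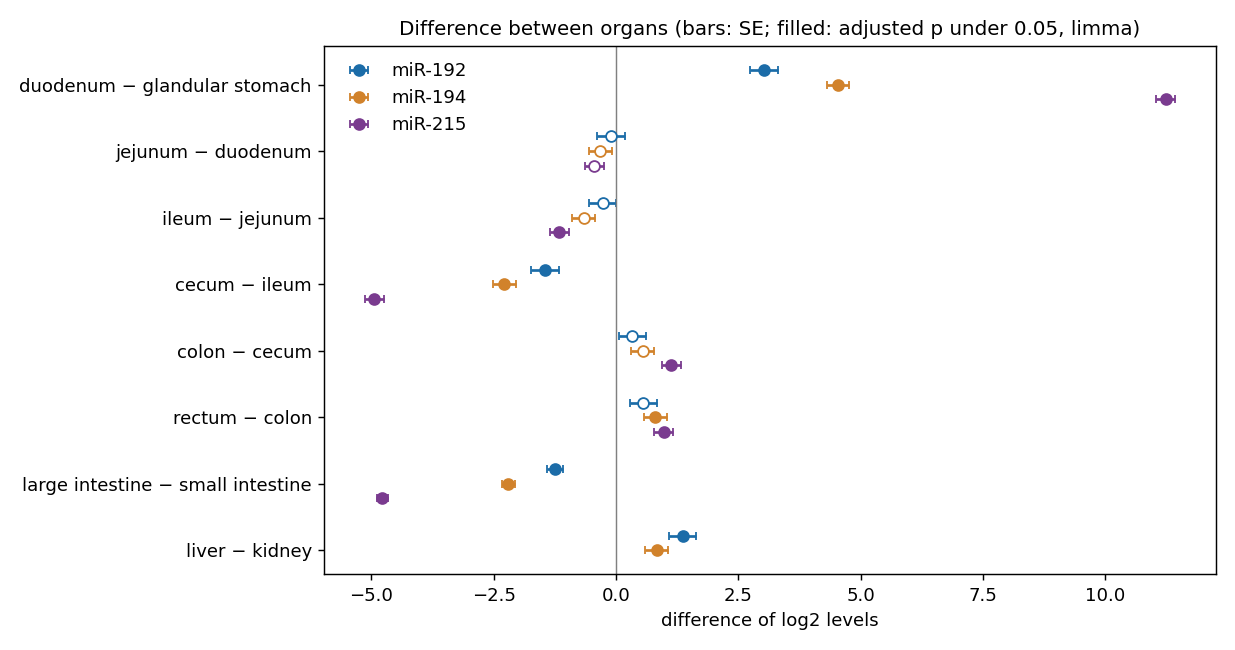
Difference of log2 levels between organs for the 3 miRNAs, with the SE from limma as a bar and filled symbols where the adjusted p was under 0.05. The differences between ileum and cecum run from −1.45 for miR-192 through −2.28 for miR-194 to −4.94 for miR-215, and jejunum and duodenum lie near 0. miR-215 is left out of liver minus kidney, where it was not detected on either side.

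**Figure D4:**
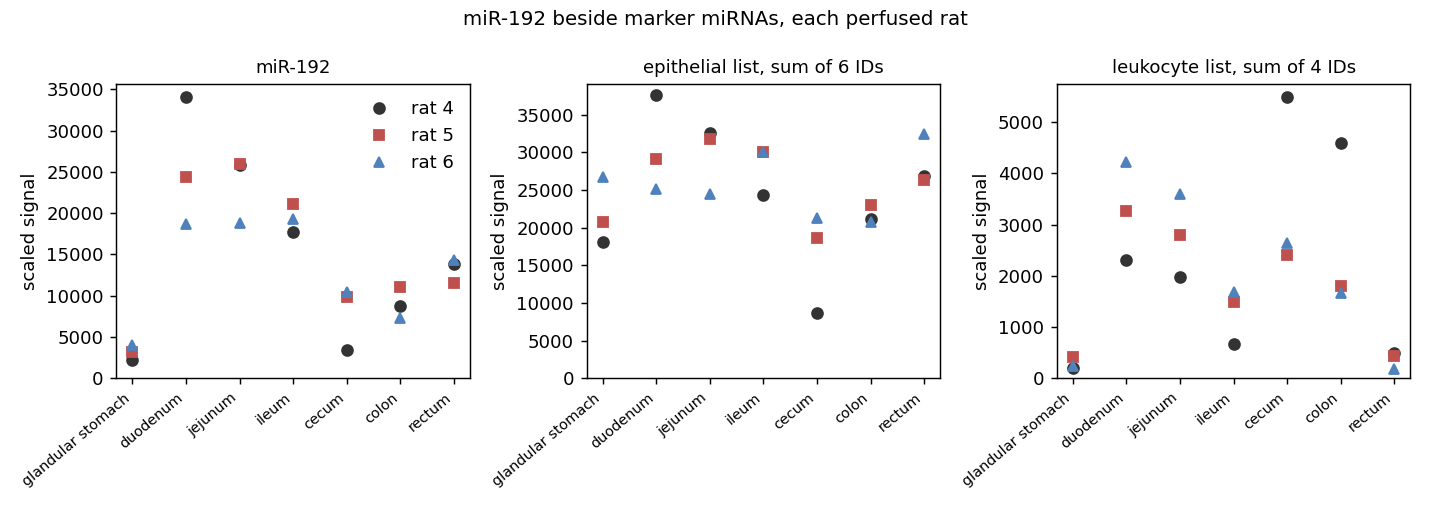
Scaled signal of miR-192 in each perfused rat from glandular stomach to rectum, beside the summed signal of 6 epithelial and 4 leukocyte miRNA IDs on the same arrays. In the cecum of rat 4 miR-192 is at 3406 and the epithelial sum at 8688, both the lowest of the 3 rats, and the leukocyte sum at 5487 is the highest.

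In the stomach, miR-192 and miR-194 separated the glandular from the anterior part, which in the rat is lined by squamous epithelium. The levels of miR-192 in rats 4, 5 and 6 were 2256, 3159 and 4047 in glandular stomach and 12.8, 15.4 and 16.3 in anterior stomach, where it was detected in 2 rats. Those of miR-194 were 756, 1116 and 1337 in glandular stomach, and in anterior stomach it was detected in 1 rat with a mean of 7.58, which is under the floor. The difference was 7.70 for miR-192 (log2, SE 0.28, adjusted p = 2.17e-49) and 6.59 for miR-194 (SE 0.23, adjusted p = 5.27e-51), where 29% of all miRNAs were called higher and 12.8% lower. The anterior signals of miR-192 lay just above the floor and those of miR-194 under it in 3 of 3 rats, so that the size for miR-194 is set by the floor, and both sizes depended on the processing. That of miR-192 ran from 5.72 with normexp to 7.82 without rat 4, and that of miR-194 from 4.51 with normexp to 7.18 with a lower floor. All 6 epithelial IDs (median 4.45) and both endocrine IDs (median 4.64) rose with them. miR-143 and miR-145 of smooth muscle fell (median −5.32), as did miR-203 and miR-205 of squamous epithelium (median −3.71) and 2 of 4 striated muscle IDs (median −2.08). Of the 4 leukocyte IDs 1 was called higher and 1 lower (median 0.06). Their part in this difference was not tested.

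miR-215 was close to the limit of detection in glandular stomach. Its signals were 13.6, 5.83 and 4.14, with detection in 1 rat, and those of miR-215_v15.0 were 28.9, 14.8 and 8.03, with detection in 2 rats. Against anterior stomach the fitted difference of miR-215 was 0.11 (adjusted p = 1), but 1.49 with normexp and 1.07 with a lower floor (adjusted p = 0.00262 and 0.00167), so that it has no settled size. That of miR-215_v15.0 was 0.62 (SE 0.25, adjusted p = 0.0386), a call that was lost under 7 alternatives, among them leaving out rat 4 (0.23, adjusted p = 0.509). Per rat the difference of miR-215_v15.0 was 1.42, 0.45 and 0.00 in rats 4, 5 and 6, so rat 4 had the largest.

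From glandular stomach to duodenum all 3 miRNAs rose, by amounts that differed widely. Scraped mucosa is named for duodenum but not for stomach, so organ and way of sampling cannot be told apart here. miR-192 rose by 3.02 (SE 0.28, adjusted p = 1.10e-17), miR-194 by 4.54 (SE 0.23, adjusted p = 1.17e-36) and miR-215 by 11.23 (SE 0.19, adjusted p = 6.51e-83), where 22.3% of all miRNAs were called higher. After quantile normalization the rise was 1.24 for miR-192 and 2.70 for miR-194. The value of miR-215 depends on the floor, since 2 of its 3 glandular signals lay under it, and it ran from 7.62 with normexp to 11.99 with a lower floor. The 6 epithelial IDs had a median difference of 0.29 at this step and 2 of them were called higher, while 4 of 4 leukocyte IDs (median 3.17) and 1 of 2 smooth muscle IDs (median 0.87) were called higher. Of the squamous IDs miR-203 was called higher (4.59) and miR-205 lower (−1.83). Their part in the rise was not tested.

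In liver the levels of miR-192 were 5202, 5023 and 5299, and in kidney they were 2482, 1973 and 1666. All liver values lay above all kidney values. Those of miR-194 were 992, 1092 and 1175 in liver and 679, 598 and 557 in kidney, again without overlap. Liver minus kidney was 1.36 for miR-192 (SE 0.28, adjusted p = 1.90e-05) and 0.83 for miR-194 (SE 0.23, adjusted p = 0.00158), with 18.6% of all miRNAs called higher and 18.3% lower. For miR-194 the call was lost without rat 6 (0.71, adjusted p = 0.11) and with the percentile taken over all miRNAs (0.44, adjusted p = 0.139). That of miR-192 was 0.84 after quantile normalization (adjusted p = 0.0129). Of the epithelial IDs 5 of 6 were called lower in liver, while 3 of 4 leukocyte IDs (median 1.08) and 1 of 2 IDs of the red cell lineage (3.40) were called higher. So were miR-122 (13.01) and 1 of 2 endocrine IDs (1.69), while 1 of 2 nervous system IDs was called lower (−0.53). That last call lay near the floor, since no nervous system ID was detected in all 3 rats in either organ. The part of the marker IDs in the difference was not tested.

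miR-215 was not well above background on any of the 12 arrays of liver and kidney, perfused or not, on either ID. The small intestine was at least 489-fold higher than liver for miR-215 (fitted adjusted p = 1.61e-90) and at least 1755-fold higher than kidney (adjusted p = 4.84e-90), from the small intestinal mean against the lowest signal of a detected miRNA on each liver or kidney array. For miR-215_v15.0 these bounds were 874-fold and 3139-fold. Cecum, the segment with the least miR-215, was at least 8.43-fold above liver and 30.3-fold above kidney, or 12.0-fold and 43.2-fold without the array of rat 4. These bounds hold for the signals as scaled here. With normexp they were 64.1-fold and 233-fold for small intestine, 114-fold and 414-fold for miR-215_v15.0, and 1.52-fold and 5.52-fold for cecum. Under the percentile over all miRNAs, quantile normalization and the authors' table, the bounds of miR-215 in small intestine were 161-fold to 319-fold against liver and 496-fold to 1003-fold against kidney. Those of miR-215_v15.0 were 309-fold to 570-fold and 952-fold to 1793-fold, and those of cecum were 5.02-fold to 6.24-fold and 14.9-fold to 19.6-fold. The fitted difference of miR-215 was 10.66 against both organs, a value set by the floor, which stood in for the undetected signals. With normexp it was 6.22 against liver and 8.08 against kidney, and over the alternatives it reached 12.66 against both. It has no settled size, and the bounds are the values to read. Against liver, small intestine was higher by 2.11 for miR-192 (log2, SE 0.23, adjusted p = 1.02e-14) and by 4.04 for miR-194 (SE 0.19, adjusted p = 2.30e-40), with 32.2% of all miRNAs called higher. Against kidney it was higher by 3.48 (SE 0.23, adjusted p = 7.13e-28) and 4.88 (SE 0.19, adjusted p = 9.52e-48), with 33.3% called higher. Under quantile normalization, the percentile over all miRNAs and the authors' table, the differences of miR-192 were smaller, 1.18 to 1.30 against liver and 2.02 to 2.46 against kidney, and that of miR-194 against liver was 2.33 after quantile normalization. All 6 epithelial IDs (median 6.90), both endocrine IDs (median 3.71), both smooth muscle IDs (median 1.54) and 2 of 4 leukocyte IDs (median 1.05) were called higher than in liver. Against kidney the same held for all 6 epithelial (median 3.73), both endocrine (median 4.37), both smooth muscle (median 1.27) and 3 of 4 leukocyte IDs (median 2.13). Against each organ, 1 of 2 squamous IDs (medians 2.73 and 2.38) and 1 of 4 striated muscle IDs (median 0.47 each) were also called higher. Called lower against liver were miR-122 (−13.27) and 1 of 2 red cell IDs (−3.50). Against kidney miR-122 (−0.25) and 1 of 2 nervous system IDs (−0.53) were called lower. Both of these calls lay near the floor, since miR-122 was detected in 1 kidney, at 18.4, and no nervous system ID was detected in all 3. The part of the marker IDs in these differences was not tested. The difference between small intestine and liver thus grew from miR-192 through miR-194 to miR-215.

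The ratio of miR-215 to miR-192 on the same array asks how far the members of the seed family part between organs, and array scaling cancels in it apart from quantile normalization. Since probes of different miRNAs differ in brightness, a ratio of 1 does not mean equal amounts, and ratios are compared between organs only. In rats 4, 5 and 6 the ratio was 1.30, 1.14 and 0.967 in duodenum, 0.936, 0.862 and 0.872 in jejunum, and 0.531, 0.468 and 0.444 in ileum. It was 0.0436, 0.0485 and 0.0371 in cecum, 0.102, 0.0753 and 0.0537 in colon, and 0.128, 0.102 and 0.0754 in rectum. Each small intestinal value was above each large intestinal value, and in duodenum, ileum, colon and rectum the ratio was highest in rat 4 and lowest in rat 6.

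On the log2 scale the mean ratio was 0.17 ± 0.21 in duodenum, −0.17 ± 0.06 in jejunum, −1.06 ± 0.13 in ileum, −4.54 ± 0.19 in cecum, −3.75 ± 0.46 in colon and −3.33 ± 0.38 in rectum (SD, n = 3 each). Averaged per rat, the ratio was −0.35 ± 0.13 in small and −3.87 ± 0.33 in large intestine, so that it was 11.5-fold lower in large intestine, or 10.3-fold with rat 4 taken over colon and rectum only. The exact two-sided permutation test on the 3 rats against 3 gave p = 0.1, the smallest that this design allows, for this ratio and for the other 2 computed alike (miR-215_v15.0 and miR-194 to miR-192), and 0.1 after adjustment over the 3. This test sets rats 4, 5 and 6 against themselves as if they were 6 animals. Paired by rat, the exact test gave p = 0.25, the smallest that 3 pairs allow, with the ratio lower in large intestine in 3 of 3 rats. Both p-values were the same without the cecum of rat 4. In the limma fit of log2 ratios to miR-192, the difference was −3.52 (SE 0.15, adjusted p = 2.58e-44), and −3.23 for miR-215_v15.0 (SE 0.16, adjusted p = 5.82e-39), or −3.53 and −3.23 without the cecum of rat 4. In that fit 2.03% of the 344 miRNAs tested were called lower relative to miR-192, and 83.1% were called higher. A miRNA at the floor in both organs takes the difference of miR-192 with its sign turned, and the median over all was 1.24. The shares called in every fit of ratios, here and below, thus follow miR-192 itself. They are no background against which the members stand out. Across the alternatives that changed the scaling, the background, the spots or the single probe sequences used, the difference of rat means stayed between −3.78 and −3.34.

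Step by step, the ratio of miR-215 to miR-192 fell by 3.48 from ileum to cecum (SE 0.26, adjusted p = 4.02e-23), with 1.74% of miRNAs called lower. From jejunum to ileum it fell by 0.89 (SE 0.26, adjusted p = 0.0198), with 0.291% called lower, and miR-215_v15.0 differed by −0.80 (SE 0.27, adjusted p = 0.0701). The call at this step was lost when any 1 of rats 4, 5 and 6 was left out (adjusted p from 0.0671 to 0.325). The other steps did not pass the test: −0.34 from duodenum to jejunum (SE 0.26, adjusted p = 0.898), 0.80 from cecum to colon (SE 0.26, adjusted p = 0.144) and 0.42 from colon to rectum (SE 0.26, adjusted p = 0.14), where 2.03%, 1.16% and 29.7% of miRNAs were called in either direction. In 3 of 3 rats the ratio was lower in jejunum than in duodenum, higher in colon than in cecum and higher in rectum than in colon. Without the cecum of rat 4, the ratio changed by −3.50 from ileum to cecum and by 0.81 from cecum to colon.

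In the organs where miR-215 was not detected, only an upper limit of the ratio can be given. With miR-215 set to the higher of its own signal and the lowest signal of a detected miRNA on the array, it was at most 0.694% of the miR-192 signal in perfused liver and at most 0.497% in perfused kidney, as geometric means of 3 rats, while the ratio in cecum was 4.28%, or 4.24% without rat 4. In glandular stomach, where 1 rat had a detected signal, the same calculation gave 0.460%. The ratio in cecum was thus 6.18 times the limit in liver and 8.63 times that in kidney. These were 2.62 and 4.50 after quantile normalization and 1.10 and 1.63 with normexp, so the size of this gap has no settled value. The miR-215 probes gave no signal above background where miR-192 was at 5023 to 5299. Whether the miR-192 probes read miR-215, which would raise miR-192 in the small intestine, was not tested.

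**Figure D5:**
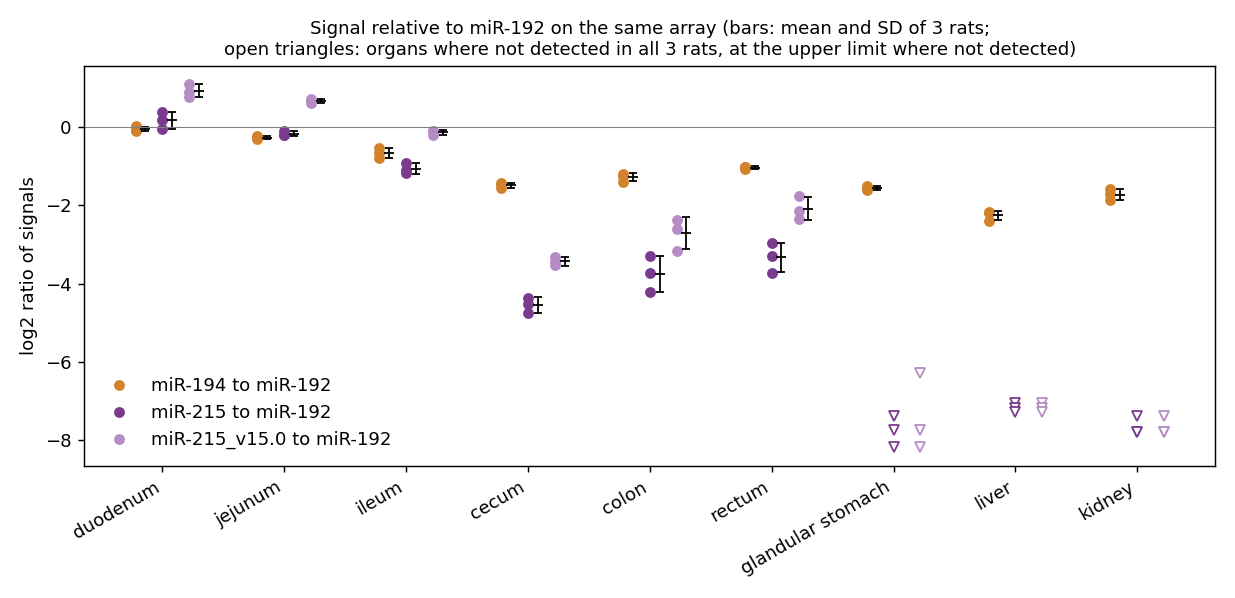
log2 ratio of the signals of miR-194, miR-215 and miR-215_v15.0 to that of miR-192 on the same array, for each perfused rat in 9 organs, with the mean and SD of 3 rats beside the points. Open triangles mark organs in which the miRNA was not detected in all 3 rats, with undetected signals at their upper limit. The ratio of miR-215 lies between −1.17 and 0.38 in small intestine and between −4.75 and −2.97 in large intestine.

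The ratio of miR-194 to miR-192 moved in the same direction over a narrower range. Its log2 mean was −0.05 ± 0.06 in duodenum, −0.27 ± 0.04 in jejunum, −0.66 ± 0.13 in ileum, −1.49 ± 0.07 in cecum, −1.28 ± 0.10 in colon and −1.04 ± 0.04 in rectum (SD, n = 3 each). In glandular stomach it was −1.56 ± 0.05, in kidney −1.72 ± 0.14 and in liver −2.26 ± 0.12. The lowest ratio was thus in liver and the highest in duodenum, and the SD within an organ was at most 0.14. Large minus small intestine was −0.94 (SE 0.11, adjusted p = 1.95e-13), or −0.95 without the cecum of rat 4, duodenum minus glandular stomach was 1.51 (SE 0.19, adjusted p = 6.58e-13), with 2.03% of miRNAs called higher, and small intestine minus liver was 1.93 (SE 0.15, adjusted p = 7.76e-23), with 8.14% called higher (1.15 after quantile normalization). Small intestine minus kidney was 1.40 (SE 0.15, adjusted p = 1.52e-15), with 4.07% called higher. Between liver and kidney the ratio differed by −0.53 (SE 0.19, adjusted p = 0.00636), with 81.1% of miRNAs called lower, and this difference was 0.17 after quantile normalization (adjusted p = 0.544), so that its direction was not kept. The call was also lost without rat 6 (−0.50, adjusted p = 0.112).

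The other strands of the hairpins have probes of their own, whose signals cannot be set against those of the main strands. miR-192* was detected in all 3 rats in the 6 intestinal segments and kidney, in 2 rats in glandular stomach and in none in perfused liver, where its mean signal of 29.2 lay above that of kidney without being well above background. Liver and kidney are thus not ordered for miR-192*. Its level was 268 ± 53.0 in duodenum, 261 ± 35.2 in jejunum, 229 ± 12.4 in ileum, 98.2 ± 50.6 in cecum, 96.6 ± 9.22 in colon, 127 ± 9.67 in rectum and 20.3 ± 1.62 in kidney (SD, n = 3 each). It followed miR-192 from small to large intestine, with a difference of −1.29 (SE 0.08, adjusted p = 4.21e-31), or −1.11 (SE 0.05, adjusted p = 1.54e-40) without the cecum of rat 4. The cecum of rat 4 was low here too, with 41.0 against 116 and 137. From colon to rectum it rose by 0.40 (SE 0.13, adjusted p = 0.0125). miR-194* was detected on 2 arrays of perfused rats, 1 of ileum and 1 of rectum, and duodenum had its highest mean signal, 67.6, without detection. No ID of a miR-215 other strand was found in the design.

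The miRNAs whose log2 organ means were most like those of the members were largely the members themselves. The Pearson r given here is over 55 organ means among the 345 miRNAs tested, is a description, and rests on points that share rats and slides. For miR-192 these were miR-194 (0.986), miR-192* (0.931), miR-3559-5p (0.851), miR-215_v15.0 (0.840) and miR-215 (0.825). For miR-194 they were miR-192 (0.986), miR-192* (0.965), miR-215_v15.0 (0.890), miR-215 (0.879) and miR-3559-5p (0.857). For miR-215 they were miR-215_v15.0 (0.998), miR-192* (0.965), miR-196c* (0.902), miR-194 (0.879) and miR-32 (0.854). Most organs lie at or near the floor for these miRNAs, so that r mainly sets the digestive organs against the rest.

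3 miRNAs on those lists are not members or their strands. miR-3559-5p was detected in all 3 rats in the same 9 organs, with levels of 115 ± 32.4 in duodenum, 94.8 ± 5.76 in glandular stomach, 93.0 ± 9.24 in liver and 21.0 ± 5.76 in kidney. It differed from miR-192 in that liver and glandular stomach were close to small intestine. miR-196c* had levels of 310 ± 160 in ileum, 248 ± 111 in colon and 55.9 ± 43.6 in duodenum, where it was detected in 2 of 3 rats, so that it was lower at the start of the intestine than further down, unlike miR-215. miR-32 was low throughout, with 40.3 ± 10.0 in duodenum and detection in 2 of 3 rats there.

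Perfused and not perfused rats were different animals, and the arrays of rat 5 lay on another slide and scan day than those of rats 1, 2 and 3. Perfusion cannot be told apart from these. Between perfused and not perfused rats limma called none of the members in the 5 organs compared, and 0% of the 191 miRNAs tested in each. That count says little about the size of a change, since a large fall of a red cell miRNA was not called either. In kidney miR-451 was 15.4, 9.87 and 15.0 in the perfused rats and 132, 163 and 227 in those not perfused, a difference of −3.64 (SE 0.93, adjusted p = 0.149). It was −3.30 in heart atrium and −3.38 in heart interventricular septum (adjusted p = 0.358 and 0.292), again without overlap, and −1.48 in liver. In lung it was −1.33, which rested on rat 4. The lung levels of miR-451 were 17.5, 422 and 1080 in rats 4, 5 and 6 and 405, 559 and 558 without perfusion. miR-144, the other red cell ID, had a fitted difference of −1.29 in liver (SE 0.34, adjusted p = 0.107). It was not detected in any liver, and its perfused signals of 9.23, 3.85 and 8.61 lay under the floor. That difference thus has no settled size. In lung miR-144 differed by 0.38. At an unadjusted p under 0.05 the fit had 11 of them in liver, 4 in kidney, 12 in lung, 4 in heart atrium and 3 in heart interventricular septum, and miR-194 in liver was among the 11. In liver miR-192 was 5406, 5471 and 5464 in rats 1, 2 and 3, which were not perfused, and perfused minus not perfused was −0.07 (SE 0.19, adjusted p = 1). In kidney it was 2029, 1800 and 2182 without perfusion, and the difference was 0.01 (SE 0.19, adjusted p = 1). miR-194 in liver was 1362, 1267 and 1241 without perfusion, above all 3 perfused livers, with a difference of −0.25 (SE 0.06, adjusted p = 0.107). It passed the test after quantile normalization (−0.27, adjusted p = 0.00325), with a higher floor (−0.25, adjusted p = 0.0224) and without rat 6 (−0.31, adjusted p = 0.0109). In kidney the difference of miR-194 was −0.02 (SE 0.06, adjusted p = 1). In lung, heart atrium and heart interventricular septum miR-192 differed by −0.08, −0.27 and −0.30 (SE 0.19 each, adjusted p = 1 each) at levels near the floor. miR-215 was not detected on any array of these organs.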

How the data were processed

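The data were 1-color microarrays of 180 samples. The authors hybridized labeled total RNA to a customized rat array, and deposited the Agilent Feature Extraction 10.7.3 output of each array, with background-corrected signal intensities of single spots, and 1 table of normalized intensities. That table, used here as an alternative, equals the scanner's total signal of each miRNA times 1 factor per array (0.411 to 10.46). 0 columns lacked a sample. Labels give 2 rat numbers for 8 arrays.

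Here spots marked as outliers were left out, and deposited intensities were averaged over spots and then over probe sequences. Each array was divided by its 75th percentile, taken over the 37 miRNAs that every array detected, and multiplied by 2118, the mean of these percentiles. The authors' methods name the same percentile. A floor of 10.8 was set before log2. Organs were compared with limma 3.58.1 (R 4.3.3), with 1 term per organ over all arrays of perfused rats, and perfusion over 10 groups, at an adjusted p (Benjamini-Hochberg) of 0.05. The same fit was run on log2 ratios to miR-192. The fits were tested on simulated data that gave each miRNA 1 spread for all organs and no likeness within a rat or slide. That test therefore cannot tell whether the p-values hold where the spread differs between organs. Python 3.11.15 with numpy 2.4.6, pandas 2.3.3, scipy 1.17.1 and matplotlib 3.10.9 was used otherwise.

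Organs of one rat come from one animal, so rat numbers pair the samples: the residuals correlated weakly within a rat (mean 0.0496, with 0.0332, 0.0611 and 0.0544 for rats 4, 5 and 6) and by −0.0246 between rats. A replicate block for rat was an alternative. Liver and kidney of one rat lay on 1 slide. The scanner files hold no mean spot signal, so that normexp (offset 50) was run on the median spot and background signals. As alternatives, other scalings, floors, background corrections, spot averages, single probe sequences, filters, sample sets, blocks and sets of rats were tried. The members, marker lists, tests and the rule for named miRNAs (members, their other strands, the 5 most alike per member, and the markers) were chosen with earlier results of these data known. Leaving out the cecum of rat 4 and the test paired by rat were added after seeing the data.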

Additional observations from a re-analysis of the deposited data

How the results depend on the processing

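Of 1333 checks of 72 member differences under alternatives, 1258 left the call as it was, 34 lost and 39 gained it. In 2 checks a called difference turned direction. Some differences without a call turned too, and these were counted as kept. For miR-192, ileum against jejunum turned to 0.65 after quantile normalization, and colon against cecum to −0.19 without the cecum of rat 4. 43 differences kept their call, or their lack of one, under every alternative run. The 2 reversals of a called difference came from quantile normalization, where miR-192 was 0.073 from small to large intestine and the ratio of miR-194 to miR-192 was 0.17 from kidney to liver. The cause of these and the following changes, listed for miR-192, miR-194 and miR-215 without the v15.0 ID, was not tested.

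With the percentile over all miRNAs, the call changed for miR-194 in ileum against jejunum (−0.82), colon against cecum (0.70) and liver against kidney (0.44), and for miR-192 in rectum against colon (1.495). With the authors' table it changed for miR-215 in jejunum against duodenum (−0.61), miR-194 in ileum against jejunum (−0.68), miR-192 in rectum against colon (1.48) and the ratio of miR-215 in ileum against jejunum (−0.89). Quantile normalization changed the call of the ratio of miR-215 in colon against cecum (1.14) and of miR-194 between perfused and not perfused liver (−0.27).

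With normexp, miR-215 changed its call in glandular against anterior stomach (1.49), ileum against jejunum (−1.13), colon against cecum (0.92) and rectum against colon (0.86), as did miR-194 in rectum against colon (0.80). The ratios to miR-192 did so for miR-194 in jejunum against duodenum (−0.21), ileum against jejunum (−0.39) and rectum against colon (0.23), and for miR-215 in jejunum against duodenum (−0.33) and colon against cecum (0.58). With a lower floor, calls changed for miR-215 between the stomachs (1.07) and its ratio in ileum against jejunum (−0.89). With a higher floor, values stayed but calls changed for miR-194 in ileum against jejunum (−0.66), colon against cecum (0.54) and liver by perfusion (−0.25), for miR-192 in rectum against colon (0.56), and for the ratio of miR-194 in ileum against jejunum (−0.39) and of miR-215 in colon against cecum (0.80) and rectum against colon (0.42). miR-194 in ileum against jejunum passed with all spots averaged (−0.66) and with slide as a random block (−0.66). The fit of the organs compared alone had fewer arrays and took the spread from those organs only. With it, calls were lost for miR-192 (−1.45) and the ratio of miR-194 (−0.83) in cecum against ileum and for miR-215 in colon against cecum (1.13).

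Calls were lost or gained when 1 rat at a time was left out, which gave −0.015 to 1.06 for miR-194 and 0.40 to 1.70 for miR-215 in colon against cecum, 0.35 to 0.82 for miR-192 and 0.56 to 1.06 for miR-194 in rectum against colon, and 0.71 to 0.97 for miR-194 in liver against kidney. It gave −0.31 to −0.19 for miR-194 by perfusion in liver, and for the ratios −0.93 to −0.85 for miR-215 in ileum against jejunum and −0.56 to −0.50 for miR-194 in liver against kidney.

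The replicate block for rat changed 1 of 64 calls, that of the ratio of miR-215_v15.0 in ileum against jejunum (−0.80, adjusted p = 0.0479). Of 120 checks of 30 member levels under 4 other scalings and backgrounds, 76 moved by 1 SD or more, while 0 of 60 did when other spots were used. The order of segments for miR-215 held under the 6 settings tried, while miR-192 was highest in rectum with the authors' table and the percentile over all miRNAs, in ileum after quantile normalization and in jejunum with normexp. Of 502 counts of called miRNAs, 93 moved by more than 1.5 times. Signals near the floor of 10.8, such as miR-215 in stomach, have no order.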
